A study of Mus musculus with 4 samples.

Results

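The 41 genes examined are widely used markers of dividing cells, 19 of S phase and 22 of G2 and mitosis (G2/M). They were taken by symbol from a named list, out of 48858 annotated genes with summed counts, and all 41 were found. The libraries were made from rRNA-depleted total RNA of naive CD4 T cells of mice, sorted by flow cytometry as TCRb+ CD4+ CD25- cells with high CD62L and low CD44. The 2 libraries of double-knockout mice (DKO, Btg1f/f Btg2f/f-CD4-Cre) were compared with 2 libraries of wild-type littermates (WT, Btg1f/f Btg2f/f). Both groups carried loxP-flanked Btg1 and Btg2, so they differ in the Cre recombinase, which Cd4 regulatory sequences switch on in developing T cells. The deletion was therefore made in the thymus and not at a chosen time in the resting cell. BTG1 and BTG2 are related proteins that recruit the CCR4-NOT deadenylase to mRNA, and the series asked what their loss does to the RNA of resting T cells.

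A T cell that leaves quiescence first loads the MCM helicase onto replication origins, then fires the origins and copies its DNA, and finally condenses and separates its chromosomes. Transcripts for the first steps are controlled largely by E2F factors, and transcripts for mitosis by the MuvB-containing complexes (DREAM, and B-MYB with FOXM1), which bind the CHR element and act together with NF-Y at CCAAT boxes. Naive T cells in blood and lymphoid organs are mostly in G0, so mitotic transcripts are scarce in them, while part of the replication machinery is kept as mRNA.

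The libraries held 16567226 and 17827631 estimated counts in DKO, against 14970076 and 13889894 in WT. Levels are given as CPM, the counts scaled to TMM library sizes, and log2 fold changes were taken as DKO minus WT. Btg1 had 6.06 and 5.77 CPM in DKO, against 530 and 470 CPM in WT, and Btg2 had 0.294 and 0.323 CPM, against 92.9 and 92.1 CPM, so both targets followed the labels. The T cell markers Cd3e (264 and 269 CPM in DKO, against 242 and 296 CPM in WT) and Cd4 (489 and 520 CPM, against 362 and 422 CPM) were abundant in every library. Among 12863 genes tested with edgeR (quasi-likelihood F test, Benjamini-Hochberg adjusted), 7 were higher in DKO (0.0544%) and 9 were lower (0.07%) at an adjusted p under 0.05. That balance depended on the scaling, with 194 higher and 66 lower on library totals, and 472 higher and 22 lower when libraries were scaled to 5 RNA polymerase III transcripts. The median log2 fold change of all tested genes was -0.01, and these scalings moved it to 0.33 and 0.90. Genes annotated as protein-coding held 44.67 and 48.89% of the counts in DKO, against 38.86 and 35.66% in WT. Pairs of mice are named in the labels, and each library was taken as 1 animal. An exact two-sided permutation test of 2 libraries against 2 cannot give a p below 0.33.

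The S phase genes were expressed at moderate levels and differed little between the genotypes, whereas the G2/M genes were scarce and had higher values in DKO, above all in DKO replicate 2. The summed level of the 19 S phase genes was 391 and 414 CPM in DKO, against 353 and 377 CPM in WT. The DKO mean was 403 ± 16.2 CPM and the WT mean 365 ± 16.7 CPM (SD, n = 2 each), a ratio of 1.10 and a log2 difference of 0.14 with a pooled SD of 0.06. The summed level of the 22 G2/M genes was 82.1 and 147 CPM in DKO, against 49.6 and 63.5 CPM in WT. Their means were 115 ± 46.2 CPM in DKO and 56.6 ± 9.86 CPM in WT (SD, n = 2 each), a ratio of 1.96 and a log2 difference of 0.97 with a pooled SD of 0.46. In both sums the DKO libraries lay above the WT libraries, at the smallest exact permutation p of 0.33. In bulk RNA, a larger share of cells in cycle and more of these transcripts per cell cannot be told apart.

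No S phase or G2/M gene passed the adjusted threshold by edgeR. Of the 41 genes, 35 passed the filter on low counts and were tested; Cdc6, Ccna2, Ccnb1, Ccnb2, Bub1 and Kif11 did not. At an unadjusted p under 0.05, 2 of 18 tested S phase genes and 5 of 17 tested G2/M genes were higher in DKO and none was lower, beside 3.82% of all tested genes higher and 4.35% lower. By DESeq2 at an adjusted p under 0.05, no S phase gene and 2 G2/M genes, Mki67 and Hmgb2, were higher in DKO, beside 0.428% of all tested genes, and none of the 35 was lower, beside 1.03%. Both DKO libraries were above both WT libraries for 7 of 18 tested S phase genes and 7 of 17 tested G2/M genes, beside 19.8% of all tested genes. With the genes that were not tested, the counts were 8 of 19 and 11 of 22. No gene of either list had both DKO libraries below both WT libraries, beside 18.8% of all tested genes. The median log2 fold change was 0.13 over the 18 tested S phase genes (range -0.37 to 0.84) and 0.67 over the 17 tested G2/M genes (range -0.26 to 2.72). On log2(TPM + 0.1) these medians were 0.459 and 0.436, and on log2(TPM + 1) 0.255 and 0.069. The medians over all tested genes were 0.27 and 0.08 on these 2 scales. A log2 fold change above 0 was found for 14 of 18 S phase and 16 of 17 G2/M genes, beside 48.1% of all tested genes, and below 0 for 4 and 1, beside 51.9%.

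**Figure D1:**
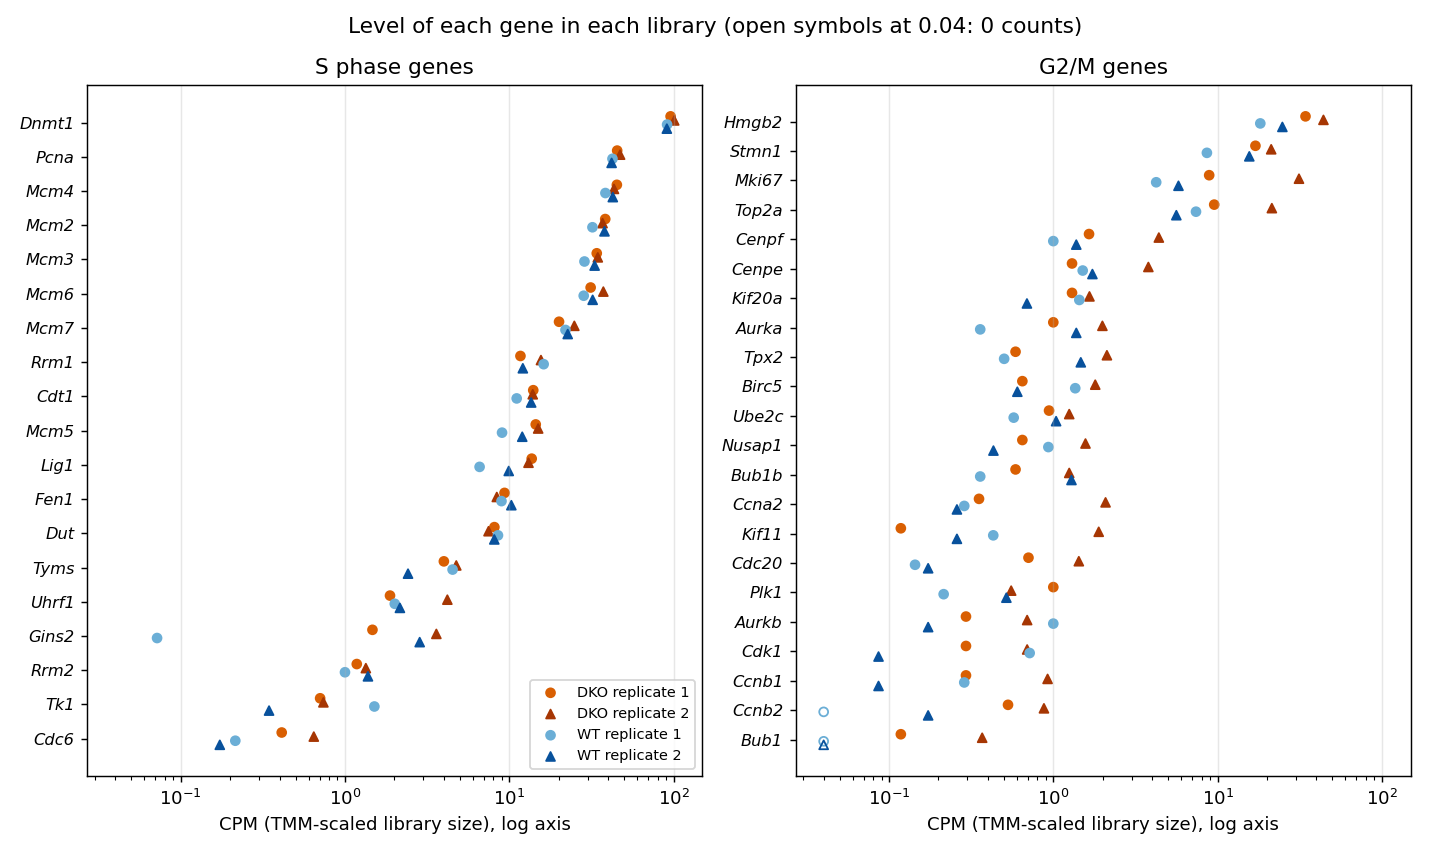
Level of each of the 41 genes in each library as CPM on a log axis, with S phase genes on the left and G2/M genes on the right, DKO libraries in orange and WT libraries in blue; open symbols stand for 0 counts. The S phase genes reach 101 CPM (Dnmt1), with wide gaps between libraries for scarce genes such as Gins2, while 18 of 22 G2/M genes lie below 5 CPM in every library and DKO replicate 2 is the highest library for 18 of 22.

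DKO replicate 2 stood apart from DKO replicate 1 in the G2/M genes. It was above replicate 1 in 21 of 22 G2/M genes, Plk1 being the exception, and in 13 of 19 S phase genes. Among the tested genes it was above in 16 of 17 and 12 of 18, beside 50.3% of all tested genes. The median log2 difference of DKO replicate 2 minus replicate 1 was 1.15 over the 22 G2/M genes and 0.06 over the 19 S phase genes. For WT replicate 2 minus replicate 1 the medians were 0.27 and 0.15, and replicate 2 was the higher in 12 of 22 G2/M and 12 of 19 S phase genes. Among the tested genes WT replicate 2 was the higher in 11 of 17 and 12 of 18, beside 51.4% of all tested genes. The counts that follow cover all listed genes, tested or not. DKO replicate 2 was the highest of the 4 libraries for 18 of 22 G2/M genes and 10 of 19 S phase genes, beside 21.7% of all tested genes. DKO replicate 1 on its own was above both WT libraries in 11 of 22 G2/M genes and 9 of 19 S phase genes, beside 31% of all tested genes. Without DKO replicate 2, 10 of 17 tested G2/M genes had a log2 fold change above 0 with a median of 0.25, and the G2/M sum stood at a log2 difference of 0.55. Without DKO replicate 1 that difference was 1.39. The S phase sum stood at 0.10 without DKO replicate 2.

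**Figure D2:**
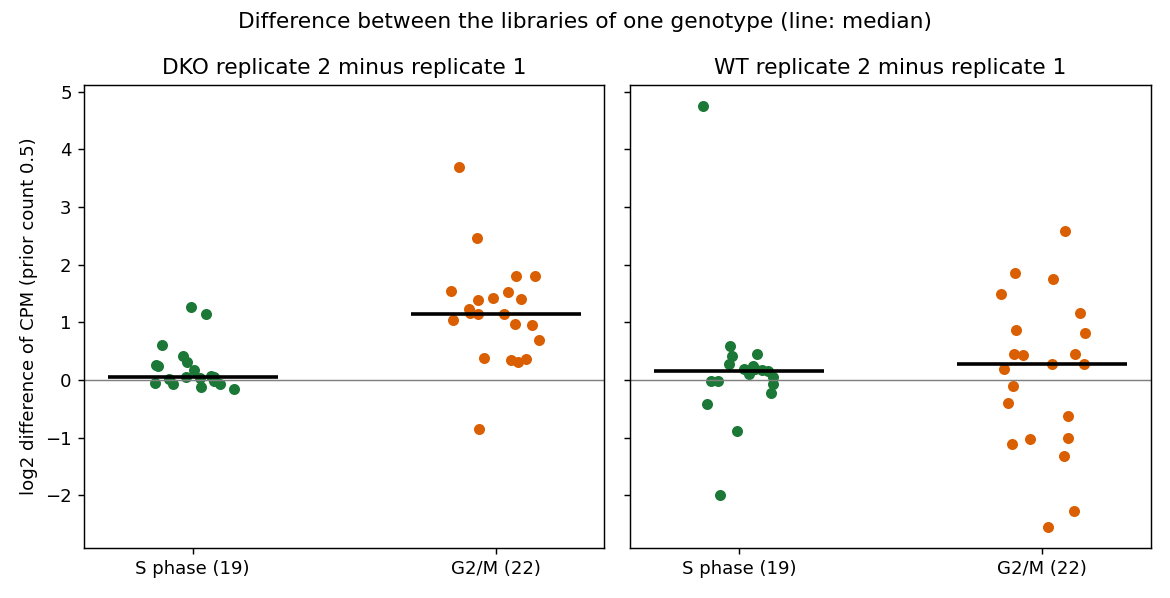
Log2 difference of CPM between the libraries of one genotype, replicate 2 minus replicate 1, for DKO on the left and WT on the right; each point is a gene and the line is the median. The G2/M points of DKO centre on 1.15 and the S phase points of DKO on 0.06, against 0.27 and 0.15 in WT, where single scarce genes scatter in both directions.

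The ratio of the lists within a library needs no scaling between libraries. The log2 ratio of the S phase sum to the G2/M sum was 2.25 and 1.49 in DKO, against 2.83 and 2.57 in WT. Both DKO values lay below both WT values, with a difference of -0.83 (pooled SD 0.40, exact permutation p = 0.33), and the difference was -0.45 without DKO replicate 2. A few genes carried each sum. Dnmt1 made up 24.5 and 24.3% of the S phase sum in DKO, against 25.9 and 24.2% in WT. Hmgb2 made up 41.8 and 29.9% of the G2/M sum in DKO, against 36.8 and 39.0% in WT. With both genes left out, the log2 differences were 0.15 for the S phase sum and 1.01 for the G2/M sum.

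The promoters of the lists were searched for the short sequence elements named above. The RefSeq promoter table (GRCm38.p6, 250 bases before to 50 after the start) held 17 of the S phase and 17 of the G2/M genes. The S phase genes had 24 windows and the G2/M genes 17. A gene was counted if any of its windows held the letters, so S phase genes had more windows to match in. The E2F letters TTTNGCGC, read on both strands, occurred in 8 of 17 S phase genes (47.1%) and in 1 of 17 G2/M genes (5.88%, Cdk1), beside 1.57% of all 27025 genes in the table. The CHR letters TTTGAA occurred in 3 of 17 S phase genes (17.6%) and in 12 of 17 G2/M genes (70.6%), beside 20.2% of all. CCAAT occurred in 58.8% of the S phase and 88.2% of the G2/M genes, beside 41.1%, and CHR together with CCAAT in 11.8% and 70.6%, beside 7.97%. Counted by window, E2F letters occurred in 33.3% of the S phase and 5.88% of the G2/M windows, beside 1.38% of all. CHR together with CCAAT occurred in 8.33% and 70.6% of windows, beside 6.95%. GGCGG, searched as a CDE-like element, occurred in 94.1% of the S phase and 88.2% of the G2/M genes, beside 51.2% of all, close to each other in both lists. A match is a description of letters in a window, and a gene without one may be bound elsewhere.

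**Figure D3:**
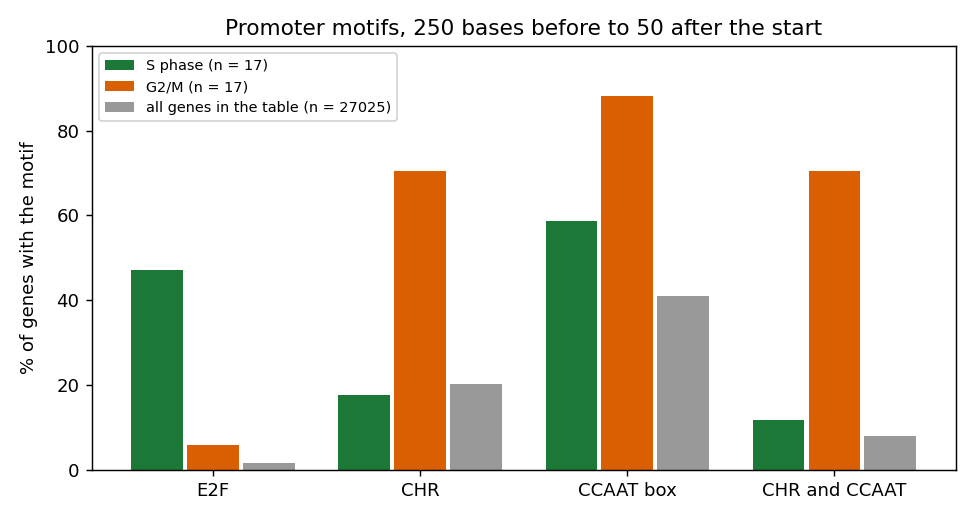
Percentage of genes with the letters of E2F, CHR, CCAAT, or CHR and CCAAT together in any of their 300-base promoter windows, for the S phase genes (green), the G2/M genes (orange) and all genes of the table (grey). E2F letters occur in 47.1% of the S phase and 5.88% of the G2/M genes, and CHR with CCAAT in 11.8% and 70.6%.

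The promoters of the MCM helicase subunits Mcm5 and Mcm6 are shown because both hold E2F letters. Mcm5 had the largest log2 fold change of the helicase subunits, and Mcm6 holds 3 matches. Each window runs 5′ to 3′ in the direction of the gene, from 170 bases before to 30 bases after the RefSeq start, with the E2F letters in capitals. The Mcm5 window is chr8:75109339-75109538, plus strand, and the Mcm6 window is chr1:128359676-128359875, minus strand. In both, matches on the plus and minus reading overlap, which gives the longer run of capitals, and CCAAT letters in these windows are left in lower case.
Mcm5: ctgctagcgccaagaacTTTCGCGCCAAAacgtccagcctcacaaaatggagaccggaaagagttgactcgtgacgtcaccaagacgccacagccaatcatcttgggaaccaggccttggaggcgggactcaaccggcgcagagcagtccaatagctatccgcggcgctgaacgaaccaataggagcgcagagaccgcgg
Mcm6: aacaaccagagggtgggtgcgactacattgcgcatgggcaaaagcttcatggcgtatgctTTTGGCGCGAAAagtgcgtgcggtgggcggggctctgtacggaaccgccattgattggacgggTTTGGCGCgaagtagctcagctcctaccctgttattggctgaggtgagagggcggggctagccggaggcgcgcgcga

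The promoters of Mki67, Top2a and Hmgb2 are shown because these genes carried much of the G2/M sum, and that of Cdc20 because it had the largest log2 fold change of the 35 tested S phase and G2/M genes. In all 4 both DKO libraries were above both WT libraries, beside 19.8% of all tested genes. These 4 were picked by their values, so that separation is not a separate result. Ccnb2, Cenpf and Plk1 also hold CHR and CCAAT letters and had groups without overlap. Aurka, Bub1b, Cdk1, Kif11 and Ube2c hold them too, and their groups overlapped. The windows of Mki67, Top2a, Hmgb2 and Cdc20 are chr7:135716350-135716549, minus strand, chr11:99024160-99024359, minus strand, chr8:57511673-57511872, plus strand, and chr4:118437314-118437513, minus strand. Capitals mark the CHR letters (TTTGAA, or TTCAAA where they lie on the other strand) and the CCAAT letters (CCAAT, or ATTGG on the other strand). Mki67 holds 2 CHR and 2 CCAAT matches in the window, Top2a 1 and 4, and Hmgb2 and Cdc20 1 and 2 each.
Mki67: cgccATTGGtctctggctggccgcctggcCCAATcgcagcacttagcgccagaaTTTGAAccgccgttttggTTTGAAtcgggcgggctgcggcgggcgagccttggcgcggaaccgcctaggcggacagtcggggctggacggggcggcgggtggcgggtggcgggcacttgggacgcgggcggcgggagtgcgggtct
Top2a: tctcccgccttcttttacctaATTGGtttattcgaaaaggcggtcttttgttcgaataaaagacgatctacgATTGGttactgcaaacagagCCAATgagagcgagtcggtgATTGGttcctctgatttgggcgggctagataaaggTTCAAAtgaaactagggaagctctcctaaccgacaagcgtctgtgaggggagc
Hmgb2: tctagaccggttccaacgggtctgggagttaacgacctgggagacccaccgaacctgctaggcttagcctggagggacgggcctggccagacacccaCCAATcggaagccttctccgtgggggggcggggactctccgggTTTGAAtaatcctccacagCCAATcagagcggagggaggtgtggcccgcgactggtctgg
Cdc20: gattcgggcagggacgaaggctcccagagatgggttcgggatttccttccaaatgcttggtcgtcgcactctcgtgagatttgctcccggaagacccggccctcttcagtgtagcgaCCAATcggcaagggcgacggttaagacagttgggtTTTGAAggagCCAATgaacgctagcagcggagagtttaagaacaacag

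The 6 subunits of the MCM2-7 helicase, the motor that is loaded on origins in G1 and unwinds DNA in S phase, had like levels in all libraries. Their summed level was 184 and 192 CPM in DKO, against 159 and 181 CPM in WT. Gene positions are from GENCODE M21 on GRCm38. The log2 fold changes of the subunits were all above 0, between 0.01 (Mcm7) and 0.49 (Mcm5), beside 48.1% of all tested genes above 0, and 3 of the 6 (Mcm3, Mcm4 and Mcm5) had both DKO libraries above both WT libraries, beside 19.8% of all tested genes. Mcm7 had -0.02 when protein-coding genes alone were scaled, and Mcm7 and Mcm2 crossed 0 when single libraries were left out. Mcm5 (ENSMUSG00000005410, chromosome 8, 75109569 to 75128439, plus strand) had 14.5 and 15 CPM in DKO, against 9.04 and 12 CPM in WT. Both DKO libraries were above both WT libraries, and the log2 fold change of 0.49 (SE 0.20) had an adjusted p of 0.579 by edgeR's quasi-likelihood test. It was 0.298 without WT replicate 1. Mcm4, the most abundant subunit by CPM, had 45.2 and 43.4 CPM in DKO, against 38.5 and 42.7 CPM in WT. Its log2 fold change was 0.12 (SE 0.14). Mcm2 (37.7 CPM on average in DKO, against 35.0 in WT), Mcm3 (34.4 against 30.9), Mcm6 (34.4 against 30.3) and Mcm7 (22.5 against 22.3) had log2 fold changes of 0.11, 0.16, 0.18 and 0.01. Per length, Mcm7, Mcm2 and Mcm4 had similar DKO levels (1.41, 1.58 and 1.31 TPM), against 1.01, 1.05 and 0.919 TPM in WT, and Mcm5 stood lowest of the 6 with 0.640 TPM in DKO, against 0.318 TPM in WT.

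The licensing factors showed levels far apart from each other. Cdt1, which loads MCM on origins together with CDC6, had 14.0 and 13.9 CPM in DKO, against 11.1 and 13.6 CPM in WT. The groups did not overlap, but WT replicate 2 came close to DKO, and the log2 fold change was 0.18 (SE 0.18). Cdc6, the origin-bound ATPase, was nearly silent, with 7 and 14 counts in DKO, against 3 and 2 in WT. It was not tested, and its pooled count ratio of 2.77 had a 95% interval of 1.02 to 9.41 that covers counting error only. Gins2, a subunit of the GINS complex that activates the helicase, had 1.47 and 3.60 CPM in DKO, against 0.0718 and 2.85 CPM in WT. The groups overlapped, with a log2 fold change of 0.84 (SE 1.35). Of the 31-base sequences in Gins2 transcripts, 66.2% also occur in transcripts of Gse1, which lies on the opposite strand and had 945 and 1166 counts in DKO, against 679 and 597 in WT, so the split of reads between these genes is uncertain.

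The 5 genes of nucleotide supply had the flattest profile. Their median log2 fold change was -0.05, and none had groups without overlap. Rrm1, the large subunit of ribonucleotide reductase, which is made throughout the cycle, had 11.7 and 15.6 CPM in DKO, against 16.2 and 12.1 CPM in WT. The libraries interleaved, with a log2 fold change of -0.05 (SE 0.22). Rrm2, the small subunit that is made in S phase, had 1.18 and 1.34 CPM in DKO, against 1 and 1.38 CPM in WT. Its log2 fold change was 0.08 (SE 0.62). Tyms (thymidylate synthase, which makes dTMP), Dut (dUTPase, which removes dUTP) and Tk1 (thymidine kinase of the salvage pathway) had log2 fold changes of 0.33, -0.10 and -0.37, with SEs of 0.37, 0.21 and 0.87. Tk1 rested on 12 and 16 counts in DKO, against 21 and 4 in WT, and 94.7% of these were assigned to transcripts annotated as retained intron, led by Tk1-202. The signs of Rrm1, Tk1 and Dut depended on the scale, with values above 0 when scaled to the RNA polymerase III transcripts and on TPM. On the polymerase III scale the median of all tested genes was 0.90, and Rrm1, Tk1 and Dut lay below it. On log2(TPM + 1) and log2(TPM + 0.1) that median was 0.08 and 0.27, with Rrm1 and Dut above it and Tk1 below it on both.

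Of the genes of the replication fork and of maintenance methylation, Lig1 had the clearest difference. Lig1 (ENSMUSG00000056394, chromosome 7, 13277283 to 13311433, plus strand), DNA ligase I, which seals Okazaki fragments, had 13.7 and 13.1 CPM in DKO, against 6.6 and 9.93 CPM in WT. Both DKO libraries were above both WT libraries, and the log2 fold change was 0.70 (SE 0.23) with an adjusted p of 0.435 by edgeR's quasi-likelihood test. It stood at 0.75 without DKO replicate 2, at 0.69 without DKO replicate 1, at 0.43 without WT replicate 1 and at 1.02 without WT replicate 2. Pcna, the sliding clamp, had 45.4 and 47.3 CPM in DKO, against 42.5 and 42.0 CPM in WT, and a log2 fold change of 0.13 (SE 0.13). Dnmt1, the maintenance methyltransferase that copies CpG methylation behind the fork, was the most abundant S phase gene by CPM with 96.0 and 101 CPM in DKO, against 91.4 and 91.1 CPM in WT. In both genes the groups were separate, by ratios of 1.10 for Pcna and 1.08 for Dnmt1. Uhrf1, which guides DNMT1 to hemimethylated DNA, had 1.88 and 4.20 CPM in DKO, against 2.01 and 2.16 CPM in WT. DKO replicate 2 alone was high, so the groups overlapped and the log2 fold change was 0.55 (SE 0.49), against -0.13 without that library. Fen1, the flap endonuclease of Okazaki fragments, had 9.36 and 8.40 CPM in DKO, against 8.97 and 10.3 CPM in WT, with an uncertain split of reads, since 79.6% of its 31-base sequences also occur in other genes, mostly in the antisense gene Gm10143. Its log2 fold change was -0.12 (SE 0.21), and it was above 0 on library totals, on the RNA polymerase III scale and on TPM. On the first 2 of these scales Fen1 lay below the median of all tested genes (0.33 and 0.90).

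**Figure D4:**
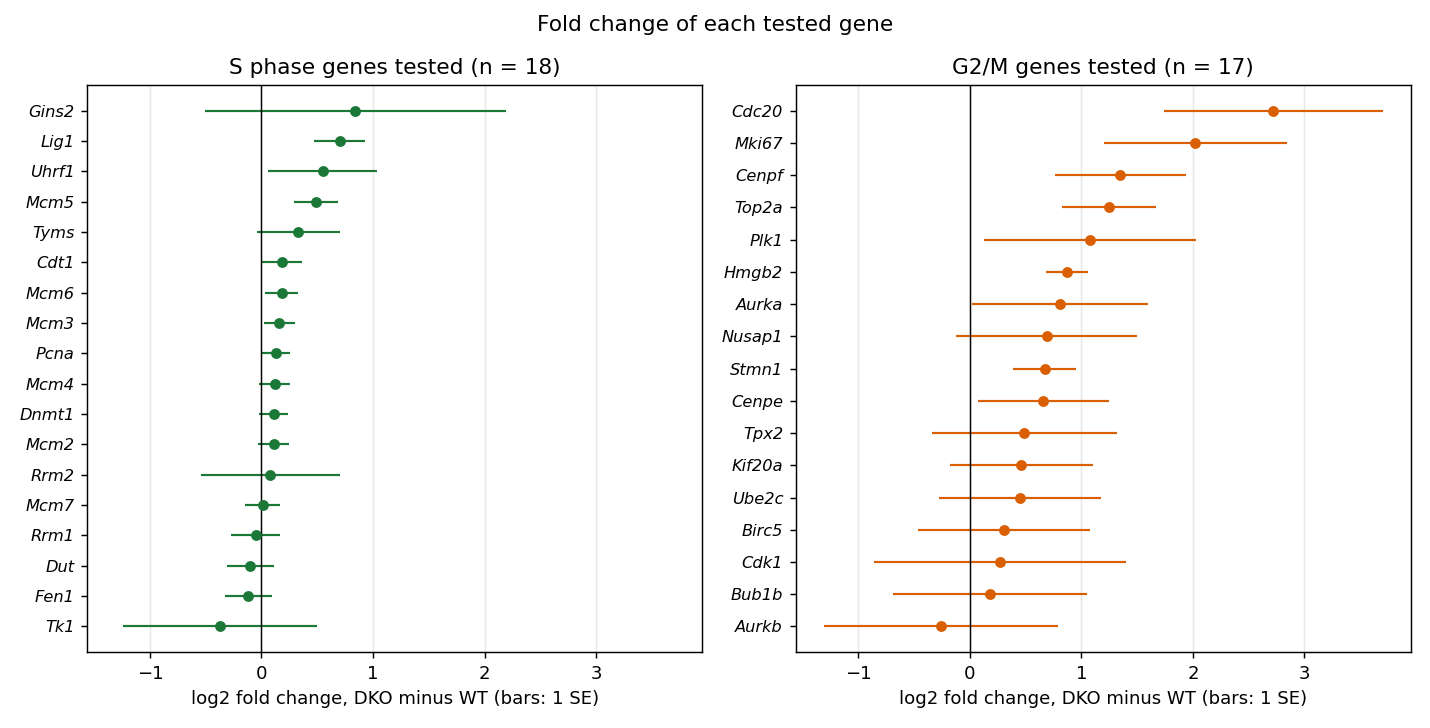
Log2 fold change, DKO minus WT, of the 18 tested S phase genes (left) and the 17 tested G2/M genes (right), with bars of 1 SE from the fit across all genes. S phase values lie between -0.37 and 0.84 around a median of 0.13, and G2/M values between -0.26 and 2.72 around a median of 0.67, with wide bars for the scarce genes.

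The G2/M genes of chromosome structure and the proliferation antigen, Hmgb2, Mki67 and Top2a, had no overlap between the groups. Hmgb2 (ENSMUSG00000054717, chromosome 8, 57511907 to 57515999, plus strand), a chromatin protein of the HMG-box family that is abundant in dividing cells, had 34.3 and 44.1 CPM in DKO, against 18.2 and 24.8 CPM in WT. Both DKO libraries were above both WT libraries, and the log2 fold change was 0.87 (SE 0.19) with an adjusted p of 0.188 by edgeR's quasi-likelihood test, the smallest of the 35 tested genes. By DESeq2 its adjusted p was 0.046. Its log2 fold change was 0.69 without DKO replicate 2.

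Mki67 (ENSMUSG00000031004, chromosome 7, 135689784 to 135716361, minus strand), which encodes the Ki-67 protein that coats mitotic chromosomes and is lost in quiescent cells, had 8.89 and 31.3 CPM in DKO, against 4.23 and 5.78 CPM in WT, from 151 and 678 counts, against 59 and 67. DKO replicate 2 was far above the other libraries, and DKO replicate 1 was also above both WT libraries. The log2 fold change was 2.02 (SE 0.82) with an adjusted p of 0.682 by edgeR's quasi-likelihood test and of 0.0136 by DESeq2, and the log2 fold change was 0.84 without DKO replicate 2. All Mki67 counts lay on transcript Mki67-201. Top2a (ENSMUSG00000020914, chromosome 11, 98992943 to 99024189, minus strand), the topoisomerase that untangles sister chromatids, had 9.54 and 21.4 CPM in DKO, against 7.39 and 5.61 CPM in WT. The groups did not overlap, with a log2 fold change of 1.25 (SE 0.42, adjusted p = 0.525 by edgeR's quasi-likelihood test) and of 0.56 without DKO replicate 2.

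The cyclins and their kinase were near the floor of detection. A floor of 3 counts corresponded to 0.181 and 0.168 CPM in DKO, against 0.2 and 0.216 CPM in WT, each of the library total. Ccna2, the cyclin of S phase and G2, had 6 and 45 counts in DKO, against 4 and 3 in WT. Ccnb1, the cyclin that starts mitosis, had 5 and 20 counts in DKO, against 4 and 1 in WT. Ccnb2, its partner paralogue, had 9 and 19 counts in DKO, against 0 and 2 in WT. In these cyclins the CPM of both DKO libraries was above that of both WT libraries, with DKO replicate 2 highest, but for Ccna2 and Ccnb1 DKO replicate 1 was close to WT replicate 1. The pooled count ratios of DKO over WT were 4.81 (95% interval 2.17 to 12.6), 3.30 (1.24 to 11) and 9.24 (2.33 to 80.1), for counting error only. Of the Ccnb1 counts, 67.5% were assigned to retained-intron transcripts, led by Ccnb1-206. Cdk1, the kinase of these cyclins, had 5 and 15 counts in DKO, against 10 and 1 in WT, and the groups overlapped.

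The mitotic kinases and the chromosomal passenger complex had 2 to 43 counts per gene and library, and none had an unadjusted p under 0.05 by edgeR. Plk1, the kinase of mitotic entry and centrosome maturation, had 1 and 0.554 CPM in DKO, against 0.215 and 0.518 CPM in WT. It was the only G2/M gene with a lower value in DKO replicate 2 than in replicate 1. Aurka, the spindle pole kinase, had 1 and 1.99 CPM in DKO, against 0.359 and 1.38 CPM in WT, with overlapping groups. Aurkb, the kinase of the passenger complex, and Birc5, its survivin subunit, had log2 fold changes of -0.26 (SE 1.05) and 0.31 (SE 0.77). Aurkb was the only tested G2/M gene below 0. Of its 14 counts in WT replicate 1, 85.7% lay on the retained-intron transcript Aurkb-208.

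Of the spindle checkpoint and anaphase-promoting complex genes, Cdc20 had the largest log2 fold change of the 3 that were tested. Cdc20 (ENSMUSG00000006398, chromosome 4, 118432901 to 118437352, minus strand), the activator of the anaphase-promoting complex, had 0.706 and 1.43 CPM in DKO, against 0.144 and 0.173 CPM in WT, from 12 and 31 counts, against 2 and 2. Both DKO libraries were above both WT libraries, and the log2 fold change of 2.72 (SE 0.98) had an adjusted p of 0.506 by edgeR's quasi-likelihood test. The pooled count ratio was 7.10 (95% interval 2.58 to 27.2), and 26.7% of the 31-base sequences of Cdc20 also occur in other genes. Bub1, a checkpoint kinase, had 2 and 8 counts in DKO, against 0 and 0 in WT. With 3 counts taken for the pooled WT libraries, the ratio of DKO over WT was 2.2. This value takes the DKO counts as exact, so counting error in DKO could bring it lower. It rests on DKO replicate 2, since the 2 counts of DKO replicate 1 lie under that floor. Bub1 was not tested in the main fit, and without the filter on low counts its log2 fold change was 5.05 (SE 2.81). Bub1b, which encodes the checkpoint protein BUBR1, had 0.589 and 1.25 CPM in DKO, against 0.359 and 1.29 CPM in WT. Ube2c, the ubiquitin-conjugating enzyme of the complex, had 0.942 and 1.25 CPM in DKO, against 0.574 and 1.04 CPM in WT. In both genes the groups overlapped.

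The spindle and kinetochore genes shared the pattern of a high DKO replicate 2. Stmn1, stathmin, which destabilises microtubules and is also expressed outside mitosis, had 17.0 and 21.2 CPM in DKO, against 8.61 and 15.6 CPM in WT. The groups did not overlap, and the log2 fold change was 0.67 (SE 0.28, adjusted p = 0.607 by edgeR's quasi-likelihood test). It was 0.295 without WT replicate 1 and 1.15 without WT replicate 2. Cenpf, a large kinetochore protein of G2 and mitosis, had 1.65 and 4.39 CPM in DKO, against 1 and 1.38 CPM in WT. The groups did not overlap, and the log2 fold change of 1.35 (SE 0.59, adjusted p = 0.61 by edgeR's quasi-likelihood test) was 0.48 without DKO replicate 2. Cenpe, the kinetochore motor, had 1.30 and 3.79 CPM in DKO, against 1.51 and 1.73 CPM in WT. Here DKO replicate 1 lay below both WT libraries. Kif11, the motor that separates spindle poles, had 2 and 41 counts in DKO, against 6 and 3 in WT, so a ratio of 3.15 (95% interval 1.52 to 7.36, counting error only) rested on DKO replicate 2 alone. Tpx2, which activates Aurora A on the spindle, Nusap1, which bundles microtubules near chromatin, and Kif20a, a motor of cytokinesis, had log2 fold changes of 0.49, 0.69 and 0.46 with SEs of 0.83, 0.81 and 0.64 and overlapping groups.

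Other genes of the same processes, taken from lists of 68 further replication genes and 92 further mitosis genes, were less different. None passed the adjusted threshold by edgeR or by DESeq2. Of 62 tested replication genes, 2 were higher and 2 lower at an unadjusted p under 0.05, beside 3.82% and 4.35% of all tested genes, with a median log2 fold change of 0.05 and summed levels of 733 and 727 CPM in DKO, against 718 and 704 CPM in WT. The replication genes with the smallest p that were higher in DKO were Dck (deoxycytidine kinase), Chaf1a (a histone chaperone of replication), Pola2 and Pold1 (DNA polymerase subunits) and Rpa1 (single-strand binding), with log2 fold changes of 0.53, 2.07, 0.37, 0.34 and 0.21. Those that were lower were Rrm2b (the p53-controlled reductase subunit), Orc2 (origin recognition), Prim1 (primase), Gmnn (the inhibitor of CDT1) and Dtymk (thymidylate kinase), with -0.52, -0.43, -0.56, -0.72 and -0.38. Of 61 tested mitosis genes, 4 were higher and none lower at an unadjusted p under 0.05, beside the same 3.82% and 4.35%, with a median of 0.21. Smc2 (a condensin subunit), Aspm (spindle poles), Dlgap5 (kinetochore fibres), Kifc1 (a minus-end motor) and Incenp (passenger complex) led the higher ones with 0.59, 2.14, 1.51, 0.47 and 0.48. Cenpw, Sgo1, Zwilch (centromere and kinetochore), Kif23 (cytokinesis) and H2afz (a histone variant) led the lower ones with -0.98, -1.18, -1.12, -0.65 and -0.25. DKO replicate 2 was above DKO replicate 1 in 80 of the 92 mitosis genes and in 51 of the 61 tested, beside 50.3% of all tested genes.

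Markers of regulatory and of activated or memory T cells, states against which a CD25- CD44low gate selects, also had higher values in DKO. The summed level of 10 regulatory T cell markers was 126 and 142 CPM in DKO, against 58.9 and 77.9 CPM in WT, and 7 of 8 tested had both DKO libraries above both WT libraries, beside 19.8% of all tested genes. The most abundant, Izumo1r, had 77.1 and 74.6 CPM in DKO, against 34.5 and 50.2 CPM in WT, and made up most of the sum in every library. Ctla4, the tested marker whose groups overlapped, had 3.18 and 3.97 CPM in DKO, against 3.37 and 3.54 CPM in WT, with a log2 fold change of 0.05 (SE 0.34). None of the 10 was at 0 in all libraries, and Itgae and Lrrc32 were at 0 in WT replicate 2. Foxp3, the lineage factor of these cells, had 5.12 and 10.4 CPM in DKO, against 1.79 and 2.50 CPM in WT, so DKO replicate 2 was highest there too. The summed level of 16 activated and memory markers was 153 and 180 CPM in DKO, against 116 and 128 CPM in WT, and 7 of 12 tested had both DKO libraries above both WT libraries, beside the same 19.8%. Of these 12, 11 had a log2 fold change above 0, and Prdm1 had -0.21 (SE 0.50). Ifng, which was not tested, had 0 and 1 counts in DKO, against 1 and 6 in WT. Il2ra stands in both lists. Cd69, the most abundant, had 64.8 and 77.0 CPM in DKO, against 60.4 and 70.2 CPM in WT. Cd44 had 29.3 and 28.6 CPM in DKO, against 15.1 and 16.8 CPM in WT. No marker of these lists passed by edgeR, where the smallest adjusted p was 0.0943, while DESeq2 gave adjusted p-values of 0.000416 for Nrp1, 0.014 for Ikzf2, 0.018 for Izumo1r, 0.0279 for Foxp3 and 0.0147 for Cd44. The part of such cells in the G2/M values was not tested. Naive T cell markers summed to 3730 and 3750 CPM in DKO, against 3420 and 3820 CPM in WT, led by Tcf7.

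Markers of other cells were low, and except for the NK list their sums overlapped between the genotypes. The 8 thymocyte markers summed to 126 and 141 CPM in DKO, against 130 and 113 CPM in WT, nearly all from Themis, which mature T cells also express, and Rag1 was at 0 in all 4 libraries. The 11 B cell and plasma cell markers summed to 7.24 and 7.25 CPM in DKO, against 6.46 and 8.81 CPM in WT, led by Ebf1, with Mzb1 at 0 throughout. The 2 tested markers of this list went in opposite directions. Ebf1 had a log2 fold change of -0.35 (SE 0.35) and Cd79a one of 1.49 (SE 0.95). Cd79a had 18 and 28 counts in DKO, against 10 and 1 in WT, and the groups did not overlap. Pax5, not tested, was lower in both DKO libraries, with 4 and 4 counts, against 4 and 11. The 12 myeloid and dendritic markers summed to 4.18 and 7.71 CPM in DKO, against 5.96 and 5.09 CPM in WT, led by Itgam, with S100a8, S100a9 and Elane at 0 throughout. The 6 NK and innate lymphoid markers summed to 3.59 and 5.22 CPM in DKO, against 2.44 and 3.37 CPM in WT, led by Eomes, with Ncr1 and Klra8 at 0 throughout. The NK sums of DKO were above those of WT, with DKO replicate 2 highest. Eomes made up most of each sum, with 2.77 and 4.94 CPM in DKO, against 1.87 and 3.11 CPM in WT, so its own groups overlapped. Of the 6 markers, 4 were at 0 in DKO replicate 2. The part of such cells in the G2/M values was not tested. The 11 erythroid and platelet markers summed to 12.4 and 15.3 CPM in DKO, against 15.3 and 11.2 CPM in WT, with Pf4 at 0 throughout. Most of each sum was Tfrc (10.2 and 11.2 CPM in DKO, against 13.4 and 8.03 CPM in WT). The globin genes Hba-a1, Hba-a2 and Hbb-bt had 7, 13 and 6 counts in DKO replicate 2 and 0 in every other library. Hbb-bs had 0 and 11 counts in DKO, against 4 and 3 in WT. Gata1, Alas2 and Klf1 were highest in WT replicate 2. The part of erythroid cells in the G2/M values was not tested.

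**Figure D5:**
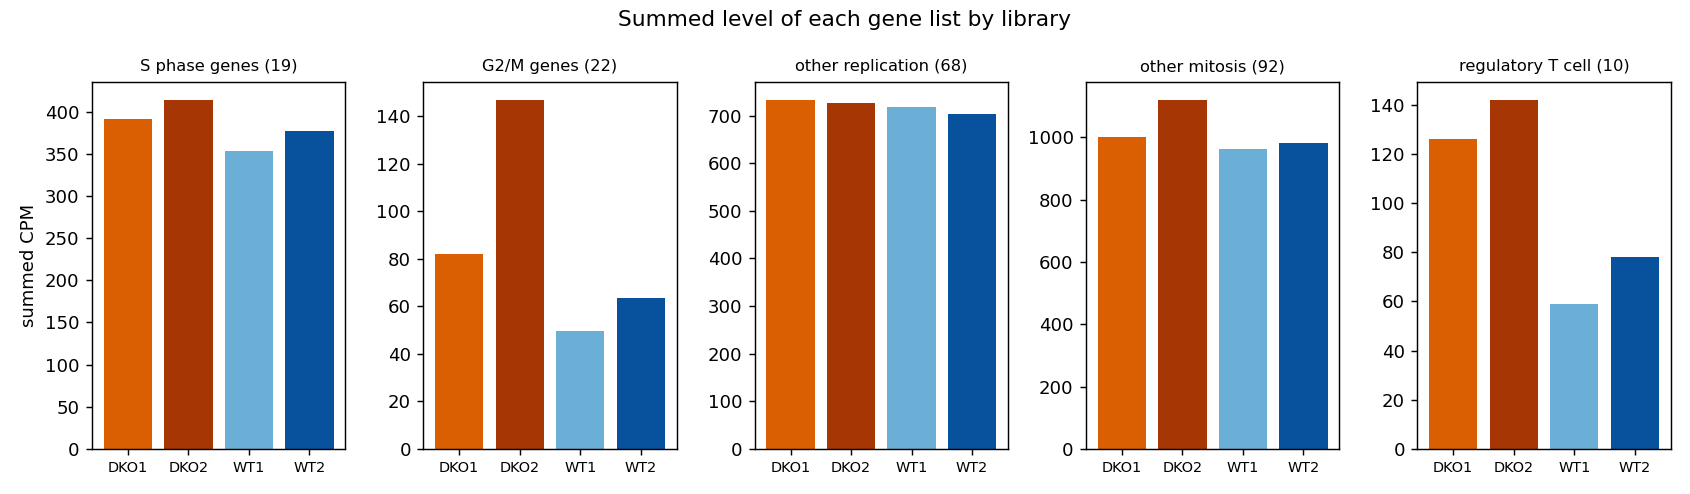
Summed CPM of each gene list in each library, DKO1 and DKO2 left of WT1 and WT2, each panel with its own axis from 0. The G2/M sum is highest in DKO2 (147 CPM), the regulatory T cell sum is higher in both DKO libraries (126 and 142 CPM) than in WT (58.9 and 77.9 CPM), and the S phase and other replication sums are nearly level.

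The type of transcript behind the counts was also compared. Transcripts annotated as protein-coding held 91.5 and 91.0% of the S phase counts in DKO, against 87.4 and 91.3% in WT, and 97.6 and 97.4% of the G2/M counts in DKO, against 91.1 and 97.6% in WT. WT replicate 1 was the lowest library in both lists, with 6.46% and 3.11% of the counts on retained-intron transcripts. It was also the lowest over all protein-coding genes, where such transcripts held 74.3 and 76.8% in DKO, against 72.7 and 79.8% in WT. Retained-intron transcripts held 3.16 and 3.70% of those counts in DKO, against 4.84 and 3.55% in WT. With protein-coding transcripts alone, the log2 differences of the sums were 0.17 for S phase and 1.02 for G2/M. Across the 41 genes, a median of 5.03% of the 31-base sequences occurred in transcripts of other genes, and 11 genes were above 20%, among them Hmgb2 (21.4%), Stmn1 (22.4%) and Pcna (23.3%). The estimated counts of those 11 genes depend on how kallisto divided shared reads.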

How the data were processed

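RNA of naive CD4 T cells was sequenced from 2 DKO and 2 WT mice, with libraries from the SMARTer Stranded Pico Input total RNA kit, per the labels' protocols. Per the submitters' processing notes, the authors ran kallisto and named mm10 and GRCm38. Its version, any strand setting and the release of the annotation were not given in the sources used here. Each deposited file lists estimated counts, unscaled, and TPM, which the authors' tool divided by effective length and brought to 1 total in every file, per the file headers. Effective lengths served 1 alternative. Reads from genes that overlap on opposite strands cannot be told apart here, since no strand setting is stated.

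Of 126782 transcripts, 125182 (98.7%) joined GENCODE M21 by identifier without version. The others held 0.827% of DKO and 0.846% of WT counts and were left out. Estimated counts were summed to genes, rounded and tested with edgeR 4.0.16 in R 4.3.3 (filterByExpr, TMM, robust quasi-likelihood F test on genotype, Benjamini-Hochberg over 12863 genes), with DESeq2 1.42.0 and limma 3.58.1 as alternatives. Single-value sums were tested by exact permutation of libraries. Functions were tested on simulated data. Genes had a common biological coefficient of variation of 0.22. Log2 CPM differences between libraries used a prior count of 0.5. SEs were derived as absolute log2 fold change over root F. Intervals and floors cover counting error only.

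The 41 genes and the lists were chosen with earlier results of these data known. Named genes were all 41, Btg1 and Btg2, up to 5 further replication and mitosis genes per direction with the smallest unadjusted p, the most abundant marker of each cell list with Foxp3, Cd44, Cd3e and Cd4, and the largest or at least 20% non-coding transcript of a gene. Markers at 0, genes sharing sequence and other markers named with values stand outside that rule and were chosen after their values were seen. Some markers of other cells are not reported here by name.

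Replicate numbers were checked for pairing. Over 12863 genes, the differences between replicates of WT and of DKO had a correlation of -0.28. That value cannot decide whether the mice were paired, since crossed pairs could also give it. The main fit used no block because the labels do not say that a number marks a litter or a batch.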

Additional observations from a re-analysis of the deposited data

How the results depend on the processing

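The direction of both sums and of both medians was the same under all alternatives, and so was the difference of the sums. Their size moved, and so did the genes that passed. The median of all tested genes also moved, to 0.33 on library totals and 0.90 on the RNA polymerase III scale. On log2(TPM + 0.1) it was 0.27 and on log2(TPM + 1) 0.08. Less that median, the S phase median was 0.15, 0.15, 0.19 and 0.17 in that order. The G2/M median was then 0.73, 0.78, 0.17 and -0.02. The numbers of genes that follow are out of 12863 tested unless another number is given. By edgeR 7 genes were higher and 9 lower, with no S phase or G2/M gene among them. DESeq2 gave 55 higher and 133 lower, with 2 G2/M genes (Mki67 and Hmgb2). Library totals gave 194 and 66, with 1 S phase gene (Lig1) and 1 G2/M gene (Hmgb2). Scaling to Rmrp, Rpph1, Rn7sk, Rn7s1 and Rn7s2 gave 472 and 22, with 2 S phase genes (Mcm5 and Lig1) and 5 G2/M genes (Cenpf, Stmn1, Mki67, Top2a and Hmgb2). Protein-coding genes alone gave 35 and 16 of 10672 tested. No filter on low counts gave 141 and 254 of 25924 tested, with 3 G2/M genes (Stmn1, Top2a and Hmgb2). An effective length offset gave 13 and 18. Limma on log2(TPM + 1) gave 1 and 4, on log2(TPM + 0.1) 1 and 5, and on log2(TPM + 1) without a filter 0 and 0 of 26321 tested. In the settings given here without gene names, none of the 35 tested genes passed. The cause of these differences was not tested.

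With the replicate number as a block, 53 genes were higher and 89 lower, and 2 G2/M genes (Mki67 and Hmgb2) passed. The labels state no pairing by number. With the numbers crossed, an alternative chosen after seeing the data, 136 were higher and 384 lower, with 2 G2/M genes (Top2a and Hmgb2). Leaving out 1 library gave 2 to 19 genes higher and 7 to 71 lower, 0 to 0 S phase genes and 0 to 2 G2/M genes. The 2 G2/M genes (Mki67 and Top2a) passed without DKO replicate 1. A lone library was then assumed to vary like the other group.

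The S phase sum, 0.14 on the log2 scale, was 0.482 on library totals, 1.075 on the polymerase III scale and 0.533 on TPM, and the G2/M sum was 1.904 on the polymerase III scale, against 0.97. Leaving out 1 library, the S phase sum ran from 0.095 to 0.188, the G2/M sum from 0.548 to 1.393 and the S phase minus G2/M difference from -1.210 to -0.447. The S phase median was 0.474 on library totals, 1.056 on the polymerase III scale, 0.255 on log2(TPM + 1) with or without a filter and 0.459 on log2(TPM + 0.1). The G2/M median was 1.688 on the polymerase III scale and 0.069 on log2(TPM + 1) with or without a filter, where scarce genes lie far below the pseudocount. On log2(TPM + 0.1) it was 0.436, so on neither TPM scale was the G2/M median above the S phase median. Scarce genes lie below the smaller pseudocount too, such as Cdc20 (mean TPM 0.0677 in DKO, 0.00844 in WT) and Cenpf (0.0413 and 0.0184). The sums of TPM, which hold no pseudocount, had log2 differences of 1.15 for G2/M and 0.53 for S phase. Leaving out 1 library, the medians ran from 0.070 to 0.216 for S phase and from 0.245 to 1.106 for G2/M, lowest without DKO replicate 2 in both.

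Single genes changed sign as follows. On library totals Rrm1 was 0.295, Dut 0.242, Fen1 0.227 and Aurkb 0.077. On the polymerase III scale Rrm1 was 0.857, Tk1 0.406, Dut 0.811, Fen1 0.813 and Aurkb 0.573. All of these values lay below the median of all tested genes, 0.33 on library totals and 0.90 on the polymerase III scale. With protein-coding genes alone Mcm7 was -0.023. On log2(TPM + 1), with or without a filter, Rrm1 was 0.253, Tk1 0.015, Dut 0.148, Fen1 0.093 and Nusap1 -0.004, and on log2(TPM + 0.1) 0.544, 0.124, 0.313, 0.259 and -0.029 in that order. Leaving out 1 library gave -0.999 to 1.502 for Aurkb, -0.600 to 1.030 for Birc5, -0.475 to 1.354 for Bub1b, -0.508 to 2.443 for Cdk1, -0.306 to 1.242 for Cenpe, -0.149 to 5.023 for Gins2, -0.011 to 0.233 for Mcm2, -0.143 to 0.172 for Mcm7, -0.079 to 1.364 for Nusap1, -0.273 to 0.179 for Rrm1, -0.131 to 0.325 for Rrm2, -1.052 to 1.050 for Tk1, -0.707 to 1.441 for Tpx2, -0.043 to 0.859 for Tyms and -0.134 to 1.026 for Uhrf1.

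With 2 libraries a group, the G2/M sum and median moved with DKO replicate 2. Of the 22 G2/M genes, 18 had fewer than 100 counts in every library, which limits the precision of their ratios.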
